A study of Mus musculus with 2 samples.

Results

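The ubiquitin-conjugating enzymes, or E2 enzymes, of the mouse were followed in erythroblasts of the fetal liver. Members were the protein-coding genes whose symbol starts with Ube2 in the GENCODE M21 annotation. There were 37 of them among 21474 protein-coding genes and 43346 Ensembl genes in the deposited tables. Poly(A)-selected RNA had been sequenced in paired-end mode in 2 libraries, numbered by the labels as biological replicates 1 and 2 and called library 1 and library 2 here. Both came from Ter119+ primary cells of embryonic day 14.5 liver, pooled from males and females, with no treatment named. Ter119 is a surface marker of the erythroid lineage from the early erythroblast onward, so the sort takes cells over several stages. The labels give the libraries separate biosamples from the same donor entry, and there is 1 group, so no condition could be compared. Each value after ± is the SD over the 2 libraries.

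An E2 enzyme takes activated ubiquitin from an E1 enzyme onto its catalytic cysteine and passes it, usually together with an E3 ligase, to a target protein. Different E2 enzymes build different chains: Lys11 and Lys48 linkages mark proteins for the proteasome, whereas Lys63 linkages act in signalling and DNA repair, and a few E2 enzymes carry NEDD8 or ISG15 instead of ubiquitin. Red cell precursors divide a few more times, expel the nucleus and degrade much of their proteome, and ubiquitin conjugation is part of that remodelling.

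The libraries held 51190555 and 44256287 expected counts, of which 14155918 and 12299432 fell outside the 8 globin genes. Globin transcripts took 86.0% and 84.4% of the TPM, the length-corrected measure which sums to the same total in each library. All 8 erythroblast markers reached 1 TPM in both libraries. Markers of other cells were low in sum: 8.35 and 12.98 TPM for 5 macrophage genes, 10.2 and 10.9 TPM for 5 hepatocyte genes, 6.31 and 8.11 TPM for 5 leukocyte genes, and 10.85 and 13.92 TPM for 4 megakaryocyte genes. The sums were 0.97 and 0.82 TPM for 3 progenitor genes and 0.13 and 0.17 TPM for 3 endothelial genes. No marker of these lists was at 0 counts in both libraries. Their part in the levels below was not tested. In sorted cells measured in bulk, a low level in every cell and a higher level in few cells cannot be told apart.

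Of the 37 Ube2 genes, 23 reached 1 TPM in both libraries, against 19.9% of the other protein-coding genes. At 10 TPM in both libraries there were 14 genes (37.8% of the family), against 5.79%. The median of the mean level was 4.04 TPM over the 37 genes and 0.02 TPM over the protein-coding genes. Among genes that passed 1 TPM the medians were 16.8 and 5.02 TPM, and neither pair of medians was tested. The family summed to 792.06 TPM in library 1 and 863.67 TPM in library 2. Outside the globin genes that was 0.566% and 0.554% of the TPM. The order of levels was nearly the same in both libraries, with Spearman's rho of 0.977 over the 37 genes, given as a description since genes of 1 library are not independent replicates.

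**Figure D1:**
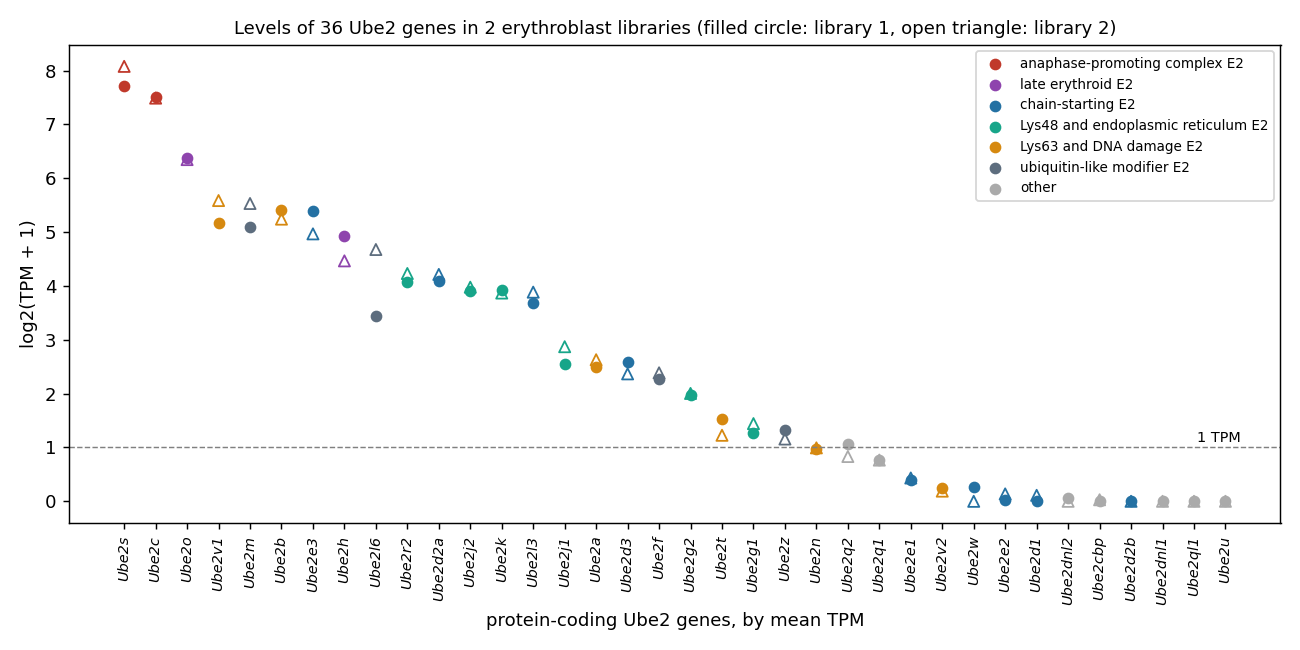
Level of each Ube2 gene as log2(TPM + 1) on the vertical axis, ordered by mean TPM on the horizontal axis; filled circles are library 1, open triangles library 2, and colours mark the roles described in the text. Ube2s and Ube2c sit above 100 TPM in both libraries, 22 of the 36 genes drawn lie at or above the dashed line at 1 TPM in both libraries, and Ube2l6 has the widest gap between its symbols among the 10 highest genes.

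The family was uneven. The 5 genes with the highest mean TPM (Ube2s, Ube2c, Ube2o, Ube2v1 and Ube2m) held 70.2% ± 2.47 of its TPM, and the first 2 alone held 49.5% in library 1 and 51.9% in library 2. Of the 32 pairs of neighbours in the order, over the 33 genes with any count, 20 had overlapping library values, so most ranks below the first 3 are not resolved. Ube2s, Ube2c and Ube2o did not overlap with their neighbours.

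The 2 highest members were both E2 enzymes of the anaphase-promoting complex, the ligase that drives cells out of mitosis: Ube2c starts the chain on a substrate and Ube2s extends it through Lys11. Ube2s was at 210.10 and 269.52 TPM (240 ± 42.0), rank 89 among protein-coding genes, from 14721 and 14823 counts. Ube2c was at 181.64 and 178.74 TPM (180 ± 2.05), rank 119, from 14718 and 11359 counts. Every Ube2s value lay above every Ube2c value, and the ratio of Ube2s to Ube2c was 1.16 in library 1 and 1.51 in library 2. In M21 the Ube2s gene overlaps Rpl28, a ribosomal protein gene at 1865.56 and 1948.68 TPM on the opposite strand, by 521 bases. The overlap lies in other transcripts than Ube2s-201, the 1 Ube2s transcript in the deposited tables, which ends 12948 bases from Rpl28. Tnnc2 overlaps Ube2c on the opposite strand, holds 17.7% of its 31-base words, and had 0 counts in both libraries. The strand setting of the counting is not stated by any source at hand, so reads of such overlaps could not be told apart.

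The promoters of this leading pair are shown because genes expressed late in the cell cycle often carry a CHR element (searched as TTTGAA or TTCGAA) and CCAAT boxes. They are RefSeq windows of build GRCm38.p6, running from 250 bases before the transcription start to 50 bases after it, at chr7:4812291-4812590 on the minus strand for Ube2s and at chr2:164769679-164769978 on the plus strand for Ube2c. Capitals mark matches to these motifs on either strand.
Ube2s: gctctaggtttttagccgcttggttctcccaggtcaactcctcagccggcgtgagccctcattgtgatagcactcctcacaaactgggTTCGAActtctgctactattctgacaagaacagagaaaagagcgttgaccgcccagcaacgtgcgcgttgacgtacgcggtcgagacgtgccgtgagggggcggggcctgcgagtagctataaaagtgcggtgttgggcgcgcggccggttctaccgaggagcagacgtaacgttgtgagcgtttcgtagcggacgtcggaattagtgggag
Ube2c: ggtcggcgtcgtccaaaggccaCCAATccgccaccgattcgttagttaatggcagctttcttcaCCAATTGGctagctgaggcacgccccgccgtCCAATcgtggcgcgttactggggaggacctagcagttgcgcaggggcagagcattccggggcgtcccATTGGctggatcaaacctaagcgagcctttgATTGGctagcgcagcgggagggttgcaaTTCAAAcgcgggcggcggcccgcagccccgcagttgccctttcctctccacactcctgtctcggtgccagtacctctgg
In Ube2c the capitals hold 6 CCAAT matches, of which those at -186 and -183 overlap in CCAATTGG, and a reverse CHR match, TTCAAA, at -29. Positions give the leftmost base counted from the transcription start, with -1 the base before it. Ube2s held a CHR match, TTCGAA, at -162 and no CCAAT. In M21 the transcript Ube2s-201 starts at the outer end of this window, at 4812590, so that the 2 annotations place the start differently. CHR letters occurred in 17.6% of 21263 windows of protein-coding genes and in 12.2% of the 41 windows of the 30 members that matched, and CCAAT in 38.2% and 22.0%. A match is a run of letters, not a shown binding site.

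Transcripts of most listed genes of the ligase that Ube2c and Ube2s serve were found in the same libraries. The assembled complex was not measured. Of 16 listed genes of the anaphase-promoting complex, 13 reached 1 TPM in both libraries. Of its activators, Fzr1 (Cdh1), which acts in late mitosis and G1, was at 66.39 and 81.74 TPM, and Cdc20, which acts at anaphase, was at 32.23 and 28.17 TPM. Fzr1 lay above Cdc20 in both libraries. Anapc11, the RING subunit that binds Ube2c, was at 13.07 and 21.70 TPM, and Anapc10, a substrate-binding subunit, had 0 counts and 1 count. The other listed genes that did not reach 1 TPM were Anapc4, at 0.12 and 0.29 TPM, and Cdc27, at 0.49 and 0.73 TPM.

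Ube2o and Ube2h form the next group, known from red cell maturation. Ube2o is a large enzyme that acts as both E2 and E3 and clears ribosomal proteins from reticulocytes. Ube2h is the E2 of the CTLH ligase, whose subunit Maea was first described at contacts between erythroblasts and macrophages. Ube2o was at 81.89 and 80.45 TPM (81.2 ± 1.02), the smallest SD among the 3 highest genes. As a percent of the mean the SD was 1.25% for Ube2o and 1.14% for Ube2c. Ube2o held 31405 and 23806 counts, the most of any member, since its transcripts are long. Ube2h was at 29.49 and 21.11 TPM (25.3 ± 5.93), so that Ube2o lay 3.29 ± 0.731 times above it. Gm26526 holds 50.2% of the words of Ube2h transcripts, and the counts of such pairs depend on how the quantifier divided the reads. Of 11 listed CTLH genes 9 reached 1 TPM in both libraries. Ranbp10 was highest at 24.75 and 28.57 TPM, Wdr26 followed at 15.70 and 12.94 TPM, and Maea was at 2.88 and 4.91 TPM. The catalytic subunits other than Maea were at 1.07 and 1.22 TPM (Rmnd5a) and 1.46 and 1.57 TPM (Rmnd5b).

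For several of these genes most of the TPM did not belong to transcripts that M21 types as protein coding. TPM is corrected for length, so a short transcript has a larger share of TPM than of counts. Of Ube2o, 69.2% and 71.6% of the TPM fell to Ube2o-202, a processed transcript of 3550 bases, and its coding transcripts held 25.27 and 22.89 TPM. By counts the share of Ube2o-202 was 60.1% and 62.9%. Ube2h-204, a processed transcript of 803 bases, held 87.8% and 84.4% of the Ube2h TPM but 51.3% and 45.5% of its counts, and by counts the coding transcript Ube2h-202 led in library 2. In coding transcripts Ube2h held 3.59 and 3.30 TPM, which put it at place 17 of the family in place of 8, and the ratio of Ube2o to Ube2h was 6.99 ± 0.0726. Transcripts without an M21 type were not counted as coding, so this order leaves out 14.16 and 13.58 TPM of Ube2k. Ube2b was at 41.55 and 36.84 TPM as a gene and at 11.92 and 9.60 TPM in coding transcripts. The processed transcript Ube2b-203 held 71.3% and 73.9% of its TPM but 48.9% and 57.5% of its counts. Ube2m was at 33.29 and 45.28 TPM as a gene and at 13.62 and 13.27 TPM in coding transcripts, and the libraries differed less in the coding values than in the gene values. In Ube2g1 a retained-intron transcript, Ube2g1-202, held 88.65% and 95.07% of the TPM but 73.3% and 87.1% of the counts. Its coding transcripts held 0.16 and 0.08 TPM. Ube2s and Ube2c stayed the first 2 on this scale, with 100% of their TPM in coding transcripts in both libraries after rounding, followed by Ube2v1 at 34.81 and 44.53 TPM and Ube2e3 at 31.74 and 30.30 TPM. Short transcripts that share exons are hard to separate with fragments, so these splits are the quantifier's estimates.

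**Figure D2:**
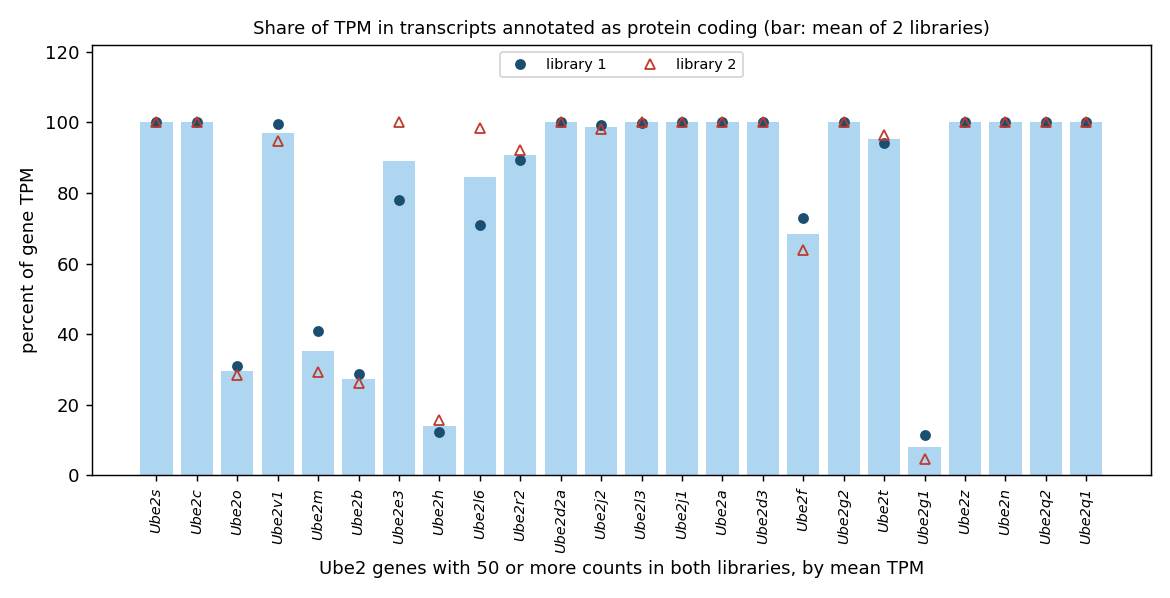
Percent of each gene's TPM in transcripts typed protein coding by M21 (vertical axis), for Ube2 genes with at least 50 counts in each library in order of mean TPM; bars are means of the 2 libraries, circles library 1 and triangles library 2. Ube2o, Ube2m, Ube2b, Ube2h and Ube2g1 have bars under 40%, and Ube2e3 and Ube2l6 have the widest gaps between libraries; Ube2k is left out because its leading transcripts have no M21 type.

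Over the 26 genes with at least 50 counts in each library, 21 of which had several annotated transcripts, the leading transcript by share of TPM was the same in both libraries in all 26. By share of counts it was the same in 24, the exceptions being Ube2h and Ube2k. In 20 of the 26 the leader was typed protein coding. Ube2e3-201 held 77.3% of the Ube2e3 TPM in library 1 and 100% in library 2, where a retained-intron transcript of 632 bases, Ube2e3-205, had 432.2 counts in library 1 and 0 in library 2.

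The E2 enzymes for Lys63 chains and DNA damage held 10.6% ± 0.0216 of the family's TPM. Ube2v1, a catalytically inactive variant that directs its partner Ube2n toward Lys63, was at 34.99 and 47.07 TPM (41.0 ± 8.54). Ube2n, the catalytic partner, was at 0.95 and 0.99 TPM from 345 and 281 counts, so per length the cofactor stood 42.2 ± 7.58 times above the enzyme. The other cofactor, Ube2v2, was at 0.19 and 0.14 TPM. Gm20431, a gene annotated across Ube2v1 on the same strand, holds 58.7% of the Ube2v1 words and had 0 counts in both libraries. Ube2b and Ube2a, the 2 mouse homologues of yeast Rad6, were at 41.55 and 36.84 TPM (39.2 ± 3.33) and at 4.66 and 5.19 TPM, a ratio of 8.01 ± 1.29. Their coding sequences were 77.6% identical over 459 bases. In coding transcripts alone the ratio of Ube2b to Ube2a was 2.56 in library 1 and 1.85 in library 2. Of 10 listed ligases and targets of this branch, 2 reached 1 TPM in both libraries: Rnf40, which with Rnf20 ubiquitinates histone H2B, at 4.46 and 5.42 TPM, and Rnf8, a ligase of the DNA break response, at 3.38 and 2.85 TPM. Ube2t, the E2 of the Fanconi anaemia pathway, was at 1.88 and 1.34 TPM while its ligase Fancl was at 0.30 and 0.22 TPM.

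Of the 5 enzymes that carry ubiquitin-like proteins (Ube2z carries ubiquitin or FAT10), all 5 reached 1 TPM in both libraries, and they held 10.4% ± 1.23 of the family's TPM. Ube2m, which passes NEDD8 to most cullins, was at 33.29 and 45.28 TPM (39.3 ± 8.48), 9.68 ± 1.46 times the level of Ube2f, the E2 that works on Cul5. In coding transcripts alone that ratio was 4.89 ± 0.0357. The NEDD8 E1 subunits were at 0.12 and 0.27 TPM (Uba3) and 0.31 and 0.44 TPM (Nae1), and Nedd8 itself at 11.10 and 8.19 TPM. Of 13 other genes of the NEDD8 and cullin list, 4 reached 1 TPM in both libraries, among them Dcun1d5, a neddylation cofactor, at 10.39 and 7.43 TPM. Ube2z was at 1.49 and 1.23 TPM, and Uba6, the E1 enzyme that charges it, was listed at 0 in each library, an upper limit of 0.0586 and 0.0678 CPM (counts relative to the library total).

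Ube2l6, the E2 for the interferon-induced modifier ISG15, was the only member with counts in both libraries whose level differed by more than 2-fold among the 10 highest. The first library gave 9.81 TPM and the other 24.59 TPM, from 1147 and 2635 counts, and the deposited bounds of the estimate were 9.14 to 10.6 TPM and 23.5 to 25.5 TPM. The libraries did not overlap by these bounds. In scaled counts library 2 stood 2.64 times above library 1, a log2 ratio of 1.40 with a 95% exact interval of 1.30 to 1.5. Counting error alone gave an adjusted p of 4.96e-179 in the exact binomial test. The edgeR exact test gave p = 0.00559 and an adjusted p of 0.386. Its spread was estimated over all genes from these same 2 libraries, so it is not an independent allowance for spread between libraries. In the coding transcript Ube2l6-201 the counts were 966.93 and 2620.46. Of the rest of the ISG15 pathway, the E1 enzyme Uba7 was at 14.68 and 25.43 TPM, Isg15 at 0.82 and 0.85 TPM, and the ISG15 protease Usp18 had 1 and 16 counts. The ISG15 ligase Herc6 had 69 and 41 counts, and Trim25, an interferon-response ligase, had 180 and 95. Of the 5 listed genes, Uba7 and Usp18 were called higher in library 2 and Trim25 lower by the binomial test, at a ratio of 0.606, and the edgeR exact test gave an adjusted p of 1 for Uba7 and Trim25 and did not include Usp18. By TPM the summed macrophage, leukocyte, megakaryocyte, hepatocyte and endothelial markers were higher in library 2, as given above, and the progenitor sum was lower. Of the 5 macrophage genes, C1qc and Csf1r were called higher in library 2 by the binomial test, while Adgre1 had 11 and 7 counts. The part of other cells in this difference was not tested. The Ube2l6 promoter, at chr2:84798578-84798877 on the plus strand of GRCm38.p6, is shown because interferon-induced genes can carry an interferon element, and capitals mark motif matches.
Ube2l6: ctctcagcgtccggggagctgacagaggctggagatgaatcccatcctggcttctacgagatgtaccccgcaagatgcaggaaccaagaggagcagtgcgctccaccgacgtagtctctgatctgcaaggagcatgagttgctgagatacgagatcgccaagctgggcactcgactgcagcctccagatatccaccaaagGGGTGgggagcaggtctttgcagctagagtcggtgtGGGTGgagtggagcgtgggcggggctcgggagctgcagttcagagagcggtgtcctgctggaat
The window held no match to the interferon-stimulated response element, which 3.35% of all windows and 2.44% of the 41 held. Reading GGGTG in the reverse orientation, it held 2 matches to the CACCC box, at -50 and -14. That box, letters bound by the erythroid factor Klf1, occurred in 59.5% of all windows and in 30 of the 41 windows of matched members (73.2%). The erythroid letters AGATAA or TGATAA occurred in 15.9% of all windows and in 2.44% of the 41, a single window of Ube2h.

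Among the E2 enzymes that serve many ligases to start chains, 4 of 9 reached 1 TPM in both libraries. The share was 19.9% among protein-coding genes other than Ube2 genes. The group of 9 held 8.53% ± 1.19 of the family's TPM. Ube2e3 was at 40.76 and 30.30 TPM (35.5 ± 7.40), whereas its relatives Ube2e1 and Ube2e2 were at 0.31 and 0.35 TPM and at 0.02 and 0.10 TPM. Their coding sequences were 76.7% and 77.5% identical to that of Ube2e3. Ube2d2a, at 16.01 and 17.57 TPM, stood 3.72 ± 0.713 times above Ube2d3, at 4.98 and 4.16 TPM, with 84.0% identity. Ube2d1 had 0 and 8 counts, and Ube2d2b, an intronless relative 92.6% identical to Ube2d2a, had 0 in both libraries. Ube2l3, which works with HECT and RBR ligases, was at 11.92 and 13.78 TPM. Ube2w, which ubiquitinates protein N termini, had 14 counts in library 1 and 0 in library 2. Set against the 3 counts that a count of 0 allows, the 14 counts of Ube2w stood 4.07-fold higher by scaled counts. That figure leaves out the counting error of the 14, so it is not a lower limit. The exact binomial test gave an adjusted p of 0.00122, and both values were under 1 TPM. The deposited bounds overlapped, at 0.16 to 0.52 TPM and 0.03 to 0.30 TPM, and the posterior mean TPM was 0.33 and 0.15.

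All 6 enzymes that build Lys48 chains or act at the endoplasmic reticulum reached 1 TPM in both libraries, with 6.67% ± 0.0708 of the family's TPM. Ube2r2, which works with cullin-RING ligases, was at 15.85 and 17.79 TPM, and its relative Cdc34, which lacks a Ube2 symbol, was at 56.25 and 58.15 TPM. Ube2k, which makes Lys48 chains without needing a ligase, was at 14.27 and 13.61 TPM. Of the membrane-anchored enzymes of endoplasmic reticulum degradation, Ube2j2 was at 13.92 and 14.75 TPM and Ube2j1 at 4.87 and 6.32 TPM, a ratio of 2.60 ± 0.371. Ube2g2 was at 2.93 and 3.01 TPM and Ube2g1 at 1.41 and 1.72 TPM.

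None of the 7 remaining genes reached 1 TPM in both libraries, and they held 0.203% ± 0.0415 of the family's TPM. Ube2q2 was at 1.08 and 0.78 TPM and Ube2q1 at 0.70 in both. Ube2ql1, Ube2u and Ube2dnl1, with Ube2d2b of the chain-starting group, were the 4 members at 0 counts in both libraries. Ube2dnl2, 94.7% identical to Ube2dnl1 in coding sequence, had 3 and 0 counts. Ube2cbp, at 2 and 3 counts, carries the symbol but encodes a ligase-type protein now called Ube3d.

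Supply of ubiquitin and of E1 enzyme was measured with the same tables. Of 14 listed modifier genes 11 reached 1 TPM in both libraries, and of 10 E1 genes 4 did. The polyubiquitin gene Ubb was at 220.86 and 349.15 TPM, and its scaled counts stood 1.41 times higher in library 2. Uba1, the main ubiquitin E1, was at 8.95 and 7.26 TPM, below 15 of the Ube2 genes in both libraries.

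The libraries were then compared gene by gene on scaled counts with a two-sided exact binomial test, which covers counting error only and says nothing of a condition. Of 29 Ube2 genes tested 18 (62.1%) passed an adjusted p of 0.05, against 44.1% of the 10955 genes tested. That share rises with depth: among genes with 100 counts in both libraries 58.0% passed, and 16 of 25 Ube2 genes (64.0%) did. Of the 18, 5 were higher in library 2 (22.4% of all genes tested were) and 13 in library 1 (21.7%). The 5 were Ube2l6, Ube2v1, Ube2j1, Ube2s and Ube2m. Apart from Ube2l6 their ratios were small, from 1.15 for Ube2m to 1.21 for Ube2v1. Those higher in library 1 included Ube2o at a ratio of 0.870, Ube2c at 0.886, Ube2b at 0.711, Ube2h at 0.700 and Ube2t at 0.614. The median size of the log2 ratio among the 25 genes was 0.21, beside 0.24 for all 5256 genes of that depth, and 24 of the 25 stayed within 2-fold, beside 97.1%. The edgeR exact test used the common dispersion of all genes (a biological coefficient of variation of 0.240). It called 0 of 28 Ube2 genes at an adjusted p of 0.05, beside 0.398% of 9043 genes, and 1 at an unadjusted 0.05, Ube2l6. That dispersion was estimated from these same 2 libraries taken as 1 group. It holds the differences under test, so few calls could arise, and their absence does not show that the libraries agree.

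**Figure D3:**
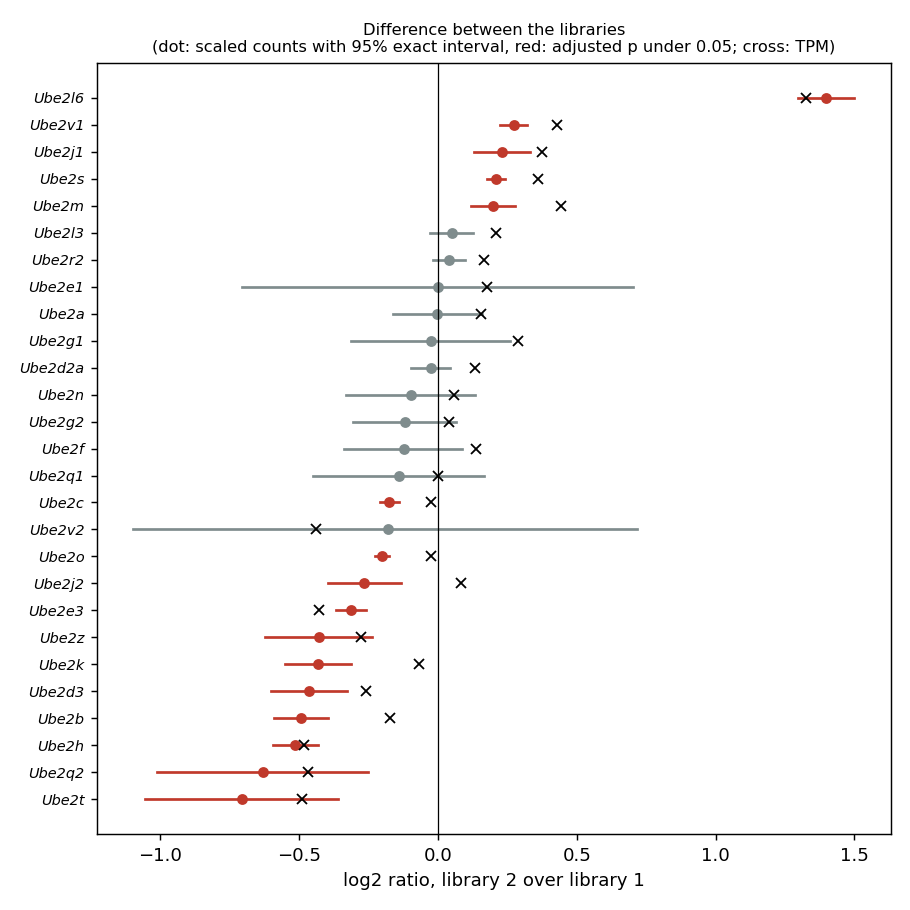
log2 ratio of library 2 over library 1 (horizontal axis) for 27 of the Ube2 genes tested that had counts in both libraries; dots are scaled counts with 95% exact intervals for counting error, red where the adjusted p was under 0.05, and crosses are ratios of TPM. Ube2l6 is the single gene beyond 1, and most crosses lie to the right of their dots.

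The scale matters for small ratios. Over the genes with 100 counts in both libraries the median log2 ratio was 0.01 in scaled counts and 0.16 in TPM, so that TPM ratios run above count ratios. Ube2j2 was lower in library 2 by counts (ratio 0.832) and higher by TPM (1.06), and Ube2c, lower by counts, was within 2% of 1 by TPM at a ratio of 0.984. There were 12 called genes lower in library 2 on both scales, among them Ube2b, Ube2h and Ube2e3.

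Higher members tended to have the higher GC content. Spearman's rho between GC content, the mean over a gene's transcripts, and log2(TPM + 1) was 0.466 over the 37 genes, beside 0.299 over all protein-coding genes. It was 0.636 over the 23 that reached 1 TPM in both libraries. No value was computed over all detected protein-coding genes to set beside that. Median GC content was 52.6% in the 14 genes at 10 TPM or more in both libraries, 48.5% in the 9 other detected genes and 45.6% in the 14 not detected. Ube2ql1, at 60.2% the highest GC content of the family, had no counts, and Ube2k, at 43.0%, was at 13.9 TPM. The points share 2 libraries, their preparation and their depth. With effective length rho was -0.06 over the 37 genes, -0.339 over the 23 detected genes and 0.09 over all protein-coding genes.

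**Figure D4:**
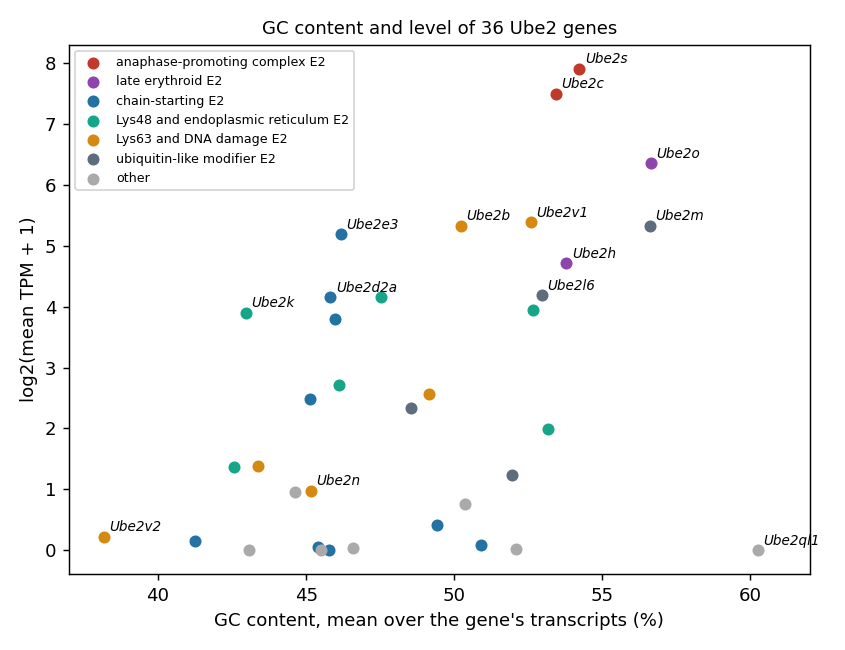
GC content in percent, the mean over a gene's annotated transcripts (horizontal axis), against log2(mean TPM + 1) over the 2 libraries (vertical axis) for 36 of the Ube2 genes, coloured by role. Ube2s, Ube2c and Ube2o lie between 53% and 57% GC, and Ube2ql1 at 60.2% is at 0.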

How the data were processed

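Values came from the gene and transcript tables that the authors deposited for each library. Reads were placed on mm10 with GENCODE M4, per the file listing deposited with the tables; no source at hand names the aligner, the quantifier or the strand setting. The deposited expected counts divide reads that match several features, and 31 of the 37 genes had whole counts in both libraries (tolerance 0.01). The deposited TPM values are corrected for effective length, and the authors' FPKM and posterior mean TPM values were alternatives. Transcript shares are the deposited percent of a gene's TPM, shown where each library held at least 50 counts of the gene.

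Members, roles and partner lists were chosen with earlier results of these data known, and sums over coding transcripts were added after the values were seen. Symbols, positions and transcript types came from M21 on the same assembly, promoters from RefSeq. Values are given in full for the 10 highest members, those called with a log2 ratio of 1 or more in size, and those at 0. Of the Ube2 genes 1 is counted but its own values are not reported here, and it is left out of the plots. Genes that overlap or share words with a member were named after their values were seen. A gene was detected at 1 TPM or more in both libraries. Expected counts were rounded and libraries scaled by TMM in edgeR 4.0.16 (R 4.3.3, factors 0.996 and 1.00). Genes with 10 or more counts over both libraries entered a two-sided exact conditional binomial test with Benjamini-Hochberg adjustment over 10955 genes, threshold 0.05, tested first on simulated data. Alternatives were DESeq2 1.42.0 size factors, total counts, other minimums, each library alone, and edgeR's exact test. A count of 0 allows 3 counts; intervals and such limits cover counting error only. Binomial p-values measure only the spread of counting within these 2 libraries. Those of edgeR use a dispersion estimated from both libraries as 1 group. Signal tracks were not analysed here.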

Additional observations from a re-analysis of the deposited data

How the results depend on the processing

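The number of Ube2 genes at 1 TPM or more in both libraries was 23, and 20 to 28 under other minimums, FPKM, posterior mean TPM or 10 counts, and 23 and 24 in either library alone. The share of TPM outside the globin genes was 0.560% ± 0.0084, 0.554% and 0.566% in either library alone, 0.530% with posterior mean TPM and 0.729% with expected counts, which are not corrected for length. The 5 genes with the highest mean TPM held 70.2%, and the same 5 held 68.4% in library 1 and 71.9% in library 2. In library 1 alone Ube2b and Ube2e3 stood above Ube2v1 and Ube2m. By FPKM Ube2b took the place of Ube2m among the 5, and by expected counts Ube2e3 did. The 18 genes called between the libraries became 17 to 19 with other scalings, count filters or posterior mean counts. They became 0 with the edgeR exact test, whose spread was estimated from these same 2 libraries. Of 28 log2 ratios 26 kept their direction under the 3 other scalings. The others were at about 0 and not called: Ube2a went from -0.0018 to 0.0093 with total counts and 0.0021 with total counts outside the globin genes, and Ube2e1 from 0.00099 to -0.013 with DESeq2 size factors. Under posterior mean TPM 10 of the 37 levels moved by more than their SD, 9 of them at genes under 1 TPM and the tenth, Ube2g2, from 2.97 to 3.14 TPM. With 0.5 TPM as the minimum 4 partner lists changed their count by over 1.5 times, and with 2 TPM the CTLH list fell from 9 to 5. No paired analysis was possible because there is 1 group. With 2 libraries in 1 group, outlying samples and differences between groups could not be tested.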

Other observations

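Besides the protein-coding genes, 4 rows carried a Ube2 symbol under another gene type. The pseudogene Ube2d-ps on chromosome 11 had 47 and 60 counts (0.41 and 0.69 TPM), more than the coding genes Ube2d1 and Ube2d2b in both libraries. Ube2d4 and Ube2nl, both processed pseudogenes, and Ube2uos, antisense to Ube2u, had 0 counts in both. On the genome 17 of the 37 Ube2 genes overlapped another annotated gene. The overlapping genes were listed at under 2 TPM in both libraries, other than Rpl28 beside Ube2s. Among proteins with an E2 fold but no Ube2 symbol, 3 of 9 reached 1 TPM in both libraries: Cdc34, Ufc1, the E2 for UFM1, at 4.62 and 4.10 TPM, and Tsg101, an endosomal sorting protein with an inactive E2 fold, at 4.48 and 4.0 TPM. Birc6, a giant enzyme that is both E2 and E3, was at 0.67 and 0.84 TPM.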
